A study of Oryza sativa with 8 samples.

Results

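Rice takes iron from the soil by 2 routes. In the first, iron-regulated transporters of the IRT type move ferrous iron across the plasma membrane. Ferric chelate reductases of the FRO type make ferrous iron in plants, and their part in rice root uptake was not tested here. In the second, nicotianamine synthase (NAS) makes nicotianamine from S-adenosylmethionine, nicotianamine aminotransferase starts its conversion to the phytosiderophore deoxymugineic acid, and transporters of the yellow stripe-like (YSL) family carry the metal complexes. In shoots, nicotianamine itself chelates iron, zinc and copper for movement in the phloem. In flooded soil iron is largely present in the ferrous form.

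The genes described here are the nicotianamine synthases NAS1 and NAS2, the iron transporter IRT2, the ferric reductase family member 0sFRO1 (spelled with a zero in the gene table) and the YSL family member osysl1. They are all genes whose symbol or synonym in the table is one of these 5 names, and each is read by exactly 1 probe set. That makes 5 probe sets among 57258 that are not controls, of which 22436 are paired with exactly 1 gene. NAS1, NAS2 and IRT2 lie on chromosome 3, 0sFRO1 on chromosome 4 and osysl1 on chromosome 1. The genes were selected on their log2 levels over the 4 groups, so these levels and every difference between groups are given as a description, with no p-value.

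The series measured messenger RNA with Affymetrix rice arrays in aerial tissue of 14 day old plants grown in soil. The 8 arrays form 4 groups of 2. They are M202(Sub1) completely submerged for 24 h and M202(Sub1) not submerged, then M202 completely submerged for 24 h and M202 not submerged. M202 is a japonica cultivar that the labels mark as lacking Sub1A, and M202(Sub1) is the same germplasm marked as carrying Sub1A, the submergence tolerance gene. As a model of Sub1A, M202(Sub1) is limited by what else came with it, since it differs from M202 by an introgressed chromosome region and not by Sub1A alone, and it is 1 line. The titles place submerged plants at day 1 and non-submerged plants at day 0, so 1 day of age cannot be told apart from submergence. Replicates are described as independent and biological, without more detail, and p-values speak only to the spread among these arrays.

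Values are log2 levels as deposited, from a floor of 2.22 up to 16.9. A value at the floor carries no order, and a difference against it is limited by the floor. Within each group the 2 arrays had r = 0.9976 to 0.9983 over the 34355 probe sets that passed a filter on low mean level, and all 5 members passed it. The tissue was checked with marker genes. Of 10 markers of green tissue, 9 lay between 4.05 and 16.6 on every array and RBCS1 between 2.64 and 3.12. Of 6 root markers, LSI2, SHR1 and WOX5 were at the floor on all 8 arrays, SCR1 lay between 2.83 and 3.04 and NRAMP5 between 5.08 and 5.82. LSI1, a silicon influx transporter known from roots, lay between 9.49 and 10.23, so the root markers were not uniformly absent.

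The nicotianamine synthase genes NAS1 and NAS2 were low in M202(Sub1) and low after submergence. NAS1 had 2.22 and 2.81 in submerged M202(Sub1), 4.20 and 4.45 in non-submerged M202(Sub1), 5.16 and 5.63 in submerged M202, and 7.85 and 7.90 in non-submerged M202. The order of the 4 groups was thus without overlap, with submerged M202(Sub1) at the bottom and non-submerged M202 at the top. The lowest array of NAS1 sat at the floor. NAS2 had 3.34 and 3.24 in submerged M202(Sub1), 4.62 and 4.62 in non-submerged M202(Sub1), 4.62 and 4.63 in submerged M202, and 6.71 and 6.85 in non-submerged M202. The middle groups of NAS2, non-submerged M202(Sub1) and submerged M202, did not differ beyond their spread.

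**Figure D1:**
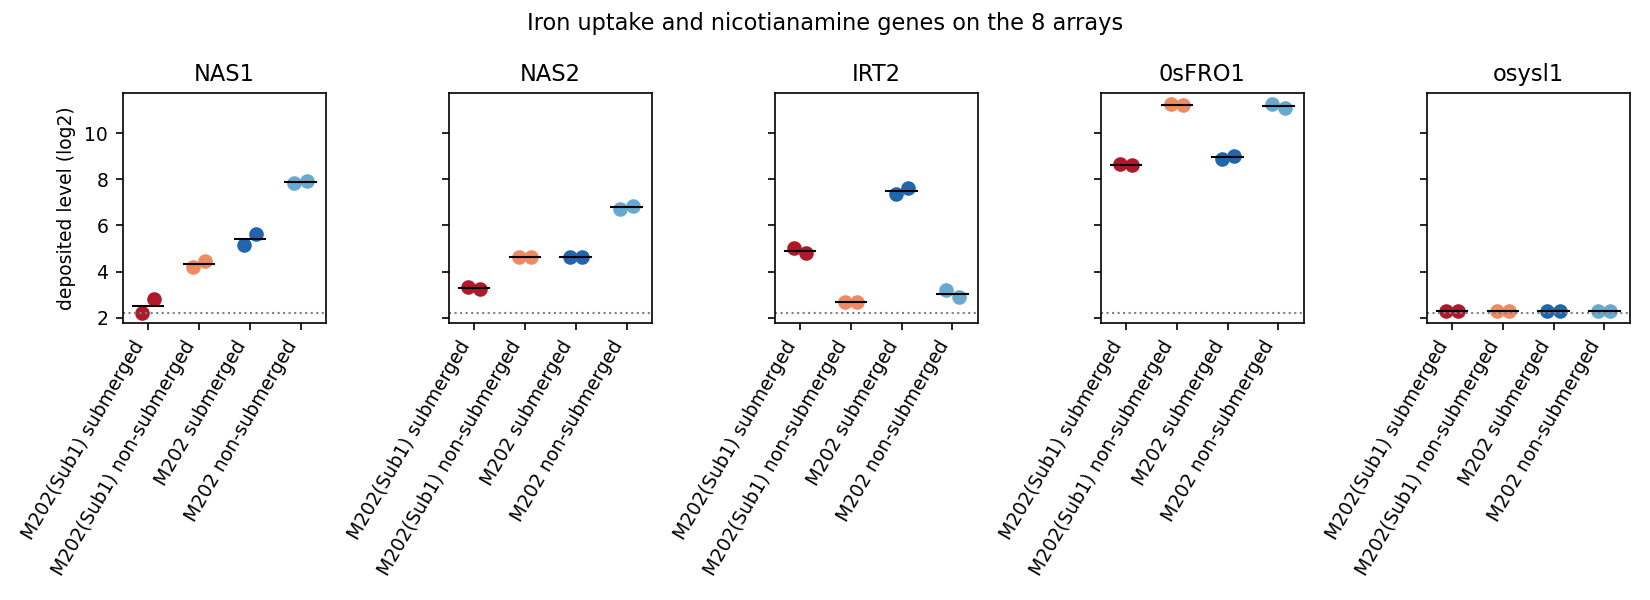
Deposited log2 level (vertical axis) of the 5 genes on the 8 arrays, with 1 panel per gene, a point per array, a black line at each group mean and the floor of 2.22 dotted. NAS1 and NAS2 were highest in non-submerged M202, IRT2 was highest in submerged M202, 0sFRO1 was lower in both submerged groups, and osysl1 stayed between 2.29 and 2.30.

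Between the genotypes, the difference in NAS1 was already present before the water rose. In non-submerged plants NAS1 averaged 4.32 in M202(Sub1) and 7.87 in M202, a log2 difference of -3.55 ± 0.26 (limma's SE, n = 2 arrays in each group), or 11.7-fold lower. In all, 75 of the 34355 tested probe sets, NAS1 included, had a difference as low as that. The genes were selected on these levels, so such ranks only describe them. NAS2 averaged 4.62 in M202(Sub1) and 6.78 in M202, a difference of -2.16 ± 0.07, or 4.47-fold lower, and 129 probe sets were as low. IRT2 averaged 2.67 and 3.04 in the same groups, a difference of -0.37 ± 0.15 near the floor. 0sFRO1 averaged 11.23 in M202(Sub1) and 11.18 in M202, and its arrays overlapped, with 11.25 and 11.21 against 11.26 and 11.09. The arrays of the genotypes did not overlap for 3 of the 5 genes, where 34.5% of all tested probe sets also did not overlap.

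After 24 h of submergence IRT2, NAS1 and NAS2 were lower in M202(Sub1) than in M202. IRT2 had 5.01 and 4.80 in submerged M202(Sub1), against 7.38 and 7.61 in submerged M202. Its difference was -2.59 ± 0.15, or 6.02-fold lower in M202(Sub1), and 134 probe sets were as low. NAS1 differed by -2.88 ± 0.26, a value limited by the floor in M202(Sub1), and NAS2 by -1.34 ± 0.07. 0sFRO1 had 8.65 and 8.60 in submerged M202(Sub1), against 8.88 and 9.01 in submerged M202, a difference of -0.32 ± 0.07, or -0.57 when arrays were centred on their spike-in controls. Here 4 of the 5 genes had arrays that did not overlap, beside 50.3% of all tested probe sets.

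Submergence went with higher IRT2 and lower NAS1, NAS2 and 0sFRO1 in both genotypes. IRT2 had 5.01 and 4.80 in submerged M202(Sub1), against 2.66 and 2.68 in non-submerged M202(Sub1), a difference of 2.24 ± 0.15. In M202 it had 7.38 and 7.61 after submergence, against 3.20 and 2.88 without it, a difference of 4.46 ± 0.15. The submerged arrays were thus above the non-submerged ones in each genotype, by 4.72-fold in M202(Sub1) and 22-fold in M202. The non-submerged means of IRT2, 2.67 and 3.04, are near the floor of 2.22, which limits both folds. In M202, 326 of the tested probe sets had a difference as high as that of IRT2.

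Levels of 0sFRO1, the ferric reductase family gene, were close in the genotypes. It averaged 8.62 in submerged and 11.23 in non-submerged M202(Sub1), a difference of -2.60 ± 0.07, or 6.08-fold lower. In M202 it averaged 8.94 in submerged and 11.18 in non-submerged plants, a difference of -2.24 ± 0.07, or 4.72-fold lower. All 4 submerged arrays lay below all 4 non-submerged ones.

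For the synthases, the submergence difference of NAS1 was -1.81 ± 0.26 in M202(Sub1), limited by the floor, and -2.48 ± 0.26 in M202. That of NAS2 was -1.33 ± 0.07 in M202(Sub1) and -2.15 ± 0.07 in M202. In both genotypes 4 of the 5 genes had arrays that did not overlap between submerged and non-submerged plants, while this held for 65.8% of all tested probe sets in M202(Sub1) and 62.9% in M202. The fifth, osysl1, had values from 2.289 to 2.305 over the 8 arrays, within 0.1 of the floor, so these arrays give no difference for it.

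**Figure D2:**
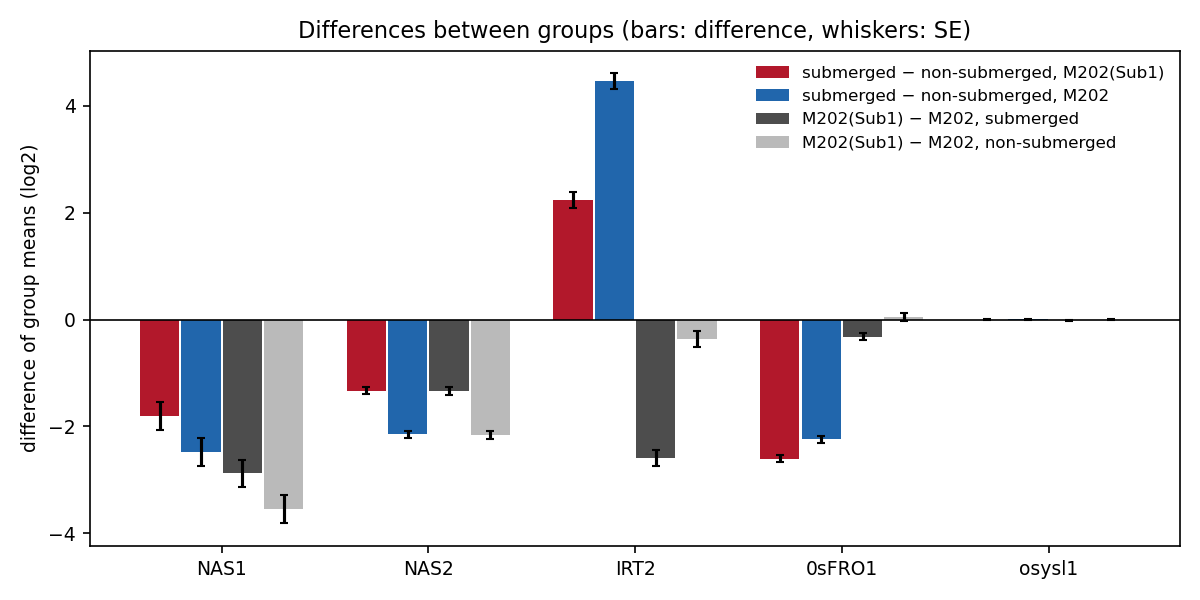
Differences of group means (vertical axis, log2) for the 5 genes in 4 comparisons, with bars for the difference and whiskers for its SE (2 arrays per group). The genotype bars of NAS1 are the longest in both conditions, followed by NAS2 in non-submerged plants and by IRT2 in submerged plants, and the submergence bars of 0sFRO1 are -2.60 in M202(Sub1) and -2.24 in M202.

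The difference between the responses was largest for IRT2. Its submergence difference in M202(Sub1) minus that in M202 was -2.22 ± 0.21, and 65 of the 34355 tested probe sets were as low. The same quantity was 0.82 ± 0.11 for NAS2 and 0.67 ± 0.36 for NAS1, which reached the floor in submerged M202(Sub1). It was -0.37 ± 0.10 for 0sFRO1, or -0.57 with spike-in centring.

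NAS1 and NAS2 followed each other over the 8 arrays (r = 0.97), while NAS1 and IRT2 had r = -0.19 and IRT2 and 0sFRO1 had r = -0.82. The 8 arrays form 4 groups of 2, so these values describe mainly the group means. How far the probe set of NAS1 also reads NAS2, a closely related gene, was not tested, since probe sequences were not used here. Among the 12357 other tested probe sets that ranged over at least 1 log2 unit, 24 had r above 0.95 with NAS1 and 29 with NAS2. The named genes most like NAS1 were FDRMADS7, listed also as MADS18, with r = 0.972, NAS2 with r = 0.971 and OsWNK7, a WNK protein kinase, with r = 0.969. For NAS2 they were OsWNK7 with r = 0.986, NAS1 with r = 0.971 and FDRMADS7 with r = 0.946. OsWNK7 differed by -1.97 between M202(Sub1) and M202 in non-submerged plants and by -0.95 in submerged plants.

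IRT2 had 246 probe sets with r above 0.95, and the closest were OsTIP4;1, a tonoplast aquaporin, with r = 0.993, and the metal transporter NRAMP2 and the alpha-galactosidase gene Melibiase, each with r = 0.992. NRAMP2 rose with submergence by 0.60 in M202(Sub1) and, in M202, by 1.23. 0sFRO1 had 3009 such probe sets, so its pattern was common on these arrays. ADF-7, an actin depolymerizing factor, the ATP phosphoribosyltransferase gene AtATP-PRT of histidine synthesis, and ABA1, listed also as ZEP, each had r = 0.999 with 0sFRO1.

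NAS2 and NAS1 are next to each other on chromosome 3, with 0 protein-coding genes between them in the RefSeq order of assembly ASM3414082v1. Of the 20 genes nearest to the pair, 10 on each side, 14 had a tested probe set. In non-submerged plants limma called 0 of these 14 different between M202(Sub1) and M202 (adjusted p over all tested probe sets below 0.05). The share of all tested probe sets called was 1.91%, so 0 of 14 does not set these genes apart. At an unadjusted p below 0.05 limma also gave 0, without a share over all tested probe sets at that threshold. The differences of the 14 genes ran from -0.23 to 0.10. In submerged plants 1 was called higher and 3 lower in M202(Sub1), beside 20.7% of all tested probe sets, with values from -1.46 to 0.47. The low levels of NAS1 and NAS2 in non-submerged M202(Sub1) thus stood next to genes with differences near 0. The median over all tested probe sets in that comparison was also 0.00. IRT2 lies elsewhere on chromosome 3, with 1 protein-coding gene between it and IRT1. Of 11 tested genes among its 20 nearest, limma called 0 for genotype in non-submerged plants, and 1 at an unadjusted p below 0.05. In submerged M202(Sub1) 2 of the 11 were lower. The shares of all tested probe sets called are again 1.91% and 20.7%.

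**Figure D3:**
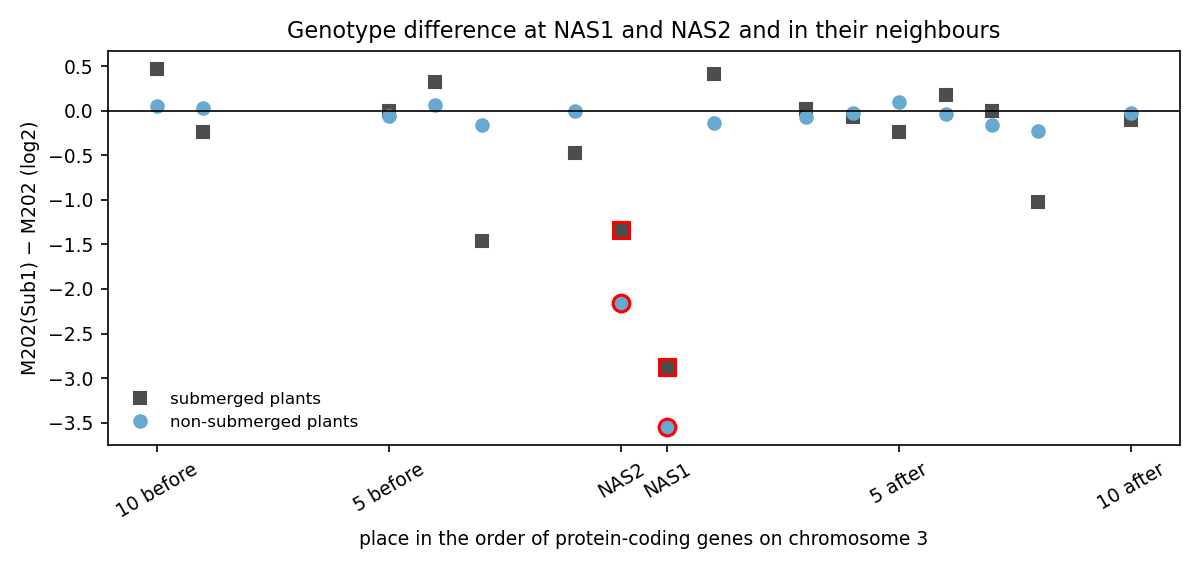
Genotype difference (vertical axis, log2, M202(Sub1) minus M202) of NAS2 and NAS1, outlined in red, and of the tested genes among 10 neighbours on each side, by place in the gene order of chromosome 3. Squares are submerged and circles non-submerged plants, and the circles of the neighbours lie between -0.23 and 0.10 while those of NAS2 and NAS1 lie at -2.16 and -3.55.

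To set the 5 genes in their pathway, a list of iron and zinc homeostasis genes was drawn up by name, without the 5 genes themselves. Of its 111 symbols, 43 genes were measured by single-gene probe sets and 38 of these were tested. In M202(Sub1) 16 of 38 rose with submergence, 14 fell and 8 were not called by limma, with a median of 0.00, where 48.9% of all tested probe sets were called, 27.7% higher and 21.2% lower. In M202 15 rose, 9 fell and 14 were not called, with a median of 0.14, where 42.9% of all tested probe sets were called, 22.9% higher and 20% lower. The median over all tested probe sets was 0.00 in each. With arrays centred on their poly(A) spike-in controls, which are bacterial RNAs put in before labelling, the split was 12 higher and 21 lower in M202(Sub1) and 14 higher and 14 lower in M202. This scaling moves the median of all tested probe sets by -0.40 in M202(Sub1) and -0.19 in M202. With it 27140 of the 34355 tested probe sets were called in M202(Sub1), 23.4% of those called being higher. In M202 19062 were called, with 33.3% of those called higher.

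Within nicotianamine and phytosiderophore synthesis, NAS3 and NAAT1 fell in both genotypes. NAAT1, the nicotianamine aminotransferase, had 5.11 and 5.50 in submerged M202(Sub1), against 8.45 and 8.40 in non-submerged M202(Sub1), a fall of 3.12 on the log2 scale (limma adjusted p = 3.01e-05). In M202 it had 6.69 and 6.70 in submerged and 8.97 and 8.97 in non-submerged plants, and fell by 2.27 (limma adjusted p = 0.000112). NAS3, the remaining nicotianamine synthase, fell by 1.12 in M202(Sub1) and by 0.80 in M202. The groups of NAAT1 and NAS3 did not overlap in either genotype. Not all genes of this role fell, since MTK1, a methylthioribose kinase that recycles the by-product of nicotianamine synthesis to methionine, rose by 1.40 in M202(Sub1) and 1.10 in M202. IDI2, a further enzyme of that cycle, fell by 1.68 in M202(Sub1) and fell by 1.17 in M202. Another probe set of IDI2, with a lower mean level of 3.43, had -1.05 and -0.86 and was not called in either genotype. The M202 call of IDI2 was lost on leaving out any of 3 arrays, replicate 2 of submerged M202 and both of non-submerged M202 (limma adjusted p = 0.0595 to 0.0866). In all, 2 of 6 genes of this role rose and 4 fell in M202(Sub1), and 2 rose and 3 fell in M202. Thus 100% and 83.3% were called, beside 48.9% and 42.9% of all tested probe sets. The rises in M202(Sub1) include SAM1 at 0.23, a call lost on leaving out any of 3 arrays, with -0.17 after spike-in centring.

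Of the 11 tested YSL transporters, 5 were not called in M202(Sub1) and 6 in M202, and those called included both directions. YSL12 had 11.80 and 11.91 in submerged M202(Sub1), against 8.51 and 8.60 in non-submerged M202(Sub1), a rise of 3.30 (limma adjusted p = 2.52e-06), and rose by 2.30 in M202. YSL13 rose by 3.60 ± 0.44 in M202(Sub1) and by 3.61 ± 0.44 in M202. YSL9, an iron complex transporter, fell by 2.23 in M202(Sub1) and by 3.18 in M202. YSL15, which takes up iron bound to deoxymugineic acid in rice roots, had 2.8 on all 8 arrays and gave no difference. YSL8, YSL10 and YSL18 had group means from 2.22 to 2.39, near the floor, so whether they respond cannot be read here. In all, 4 of 11 transporters rose and 2 fell in M202(Sub1), and 4 rose and 1 fell in M202. Thus 54.5% and 45.5% were called, beside 48.9% and 42.9% of all tested probe sets. The genes not called include YSL8, YSL10, YSL15 and YSL18, so these shares do not describe the transporters with a clear signal. The falls in M202(Sub1) include YSL6 at -0.12, a call lost on leaving out any of 5 arrays. The rises in M202 include YSL14 at 0.43, a call lost on leaving out any of 3 arrays. The counts include YSL16 in M202(Sub1), at 0.26, whose call was lost on leaving out any of 5 arrays, both of submerged M202(Sub1), replicate 2 of non-submerged M202(Sub1) and both of non-submerged M202 (limma adjusted p = 0.0664 to 0.136) and had -0.14 with spike-in centring. They also include YSL6 in M202, at 0.16, whose call was lost without replicate 1 of submerged or of non-submerged M202 (limma adjusted p = 0.0519 to 0.0578) and which had -0.03 with that centring.

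IRT1, the close relative and near neighbour of IRT2, did not share its rise. It had 5.97 and 5.64 in submerged M202(Sub1), against 6.94 and 6.69 in non-submerged M202(Sub1), and fell by 1.01 ± 0.16 (limma adjusted p = 0.00399). In M202 its value was -0.46 ± 0.16 (limma adjusted p = 0.0742), with levels of 6.38 and 6.60 in submerged plants, against 6.98 and 6.92 in non-submerged plants. Among the other uptake genes, NRAMP1, a plasma membrane metal transporter, fell by 3.51 in M202(Sub1) and fell by 2.70 in M202. ZIP4, a zinc transporter, fell by 2.58 in M202(Sub1) and fell by 3.55 in M202. ZIP1, ZIP2 and ZIP7 of the same family rose, by 2.17, 2.94 and 2.84 in M202(Sub1) and by 3.03, 3.21 and 2.22 in M202. Of the 14 tested genes of iron and zinc uptake, 6 rose and 5 fell in M202(Sub1), and 5 rose and 3 fell in M202. Thus 78.6% and 57.1% were called, beside 48.9% and 42.9% of all tested probe sets. The rises in M202(Sub1) include ZIP6 at 0.38, a call lost on leaving out any of 6 arrays, with -0.02 after spike-in centring. The falls in M202 include ZIP5 at -0.48, a call lost on leaving out either of 2 arrays.

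Both tested regulators were called for submergence in each genotype, where 48.9% of all tested probe sets were called in M202(Sub1) and 42.9% in M202. BHLH063, a basic helix-loop-helix factor of the iron deficiency response whose entry carries the names IRO3 and OsIRO2, had 8.35 and 8.37 in submerged M202(Sub1), against 10.51 and 10.55 in non-submerged M202(Sub1), and fell by 2.18 (limma adjusted p = 1.85e-06). It fell by 1.84 in M202. IDEF1, which binds an iron deficiency-responsive promoter element, rose by 1.18 ± 0.21 in M202(Sub1) and by 0.76 ± 0.21 in M202. The M202 call of IDEF1 was lost on leaving out any of 5 arrays, namely both of submerged M202(Sub1), both of non-submerged M202 and replicate 1 of submerged M202 (limma adjusted p = 0.0756 to 0.153). The vacuolar iron transporters went opposite ways. VIT1 fell by 1.58 in M202(Sub1) and by 1.22 in M202, while VIT2 rose by 2.88 in M202(Sub1) and by 2.29 in M202. HMA4, a copper transporter of the vacuole, rose by 1.61 in M202(Sub1) and by 1.71 in M202. Of 5 tested genes of storage and movement, 3 rose and 2 fell in M202(Sub1), and 3 rose and 1 fell in M202. Thus 100% and 80% were called, beside 48.9% and 42.9% of all tested probe sets. The falls in M202(Sub1) include HMA5 at -0.58, a call lost on leaving out any of 6 arrays. The rises there include MTP1 at 0.40, which had 0.00 with spike-in centring and was then not called.

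**Figure D4:**
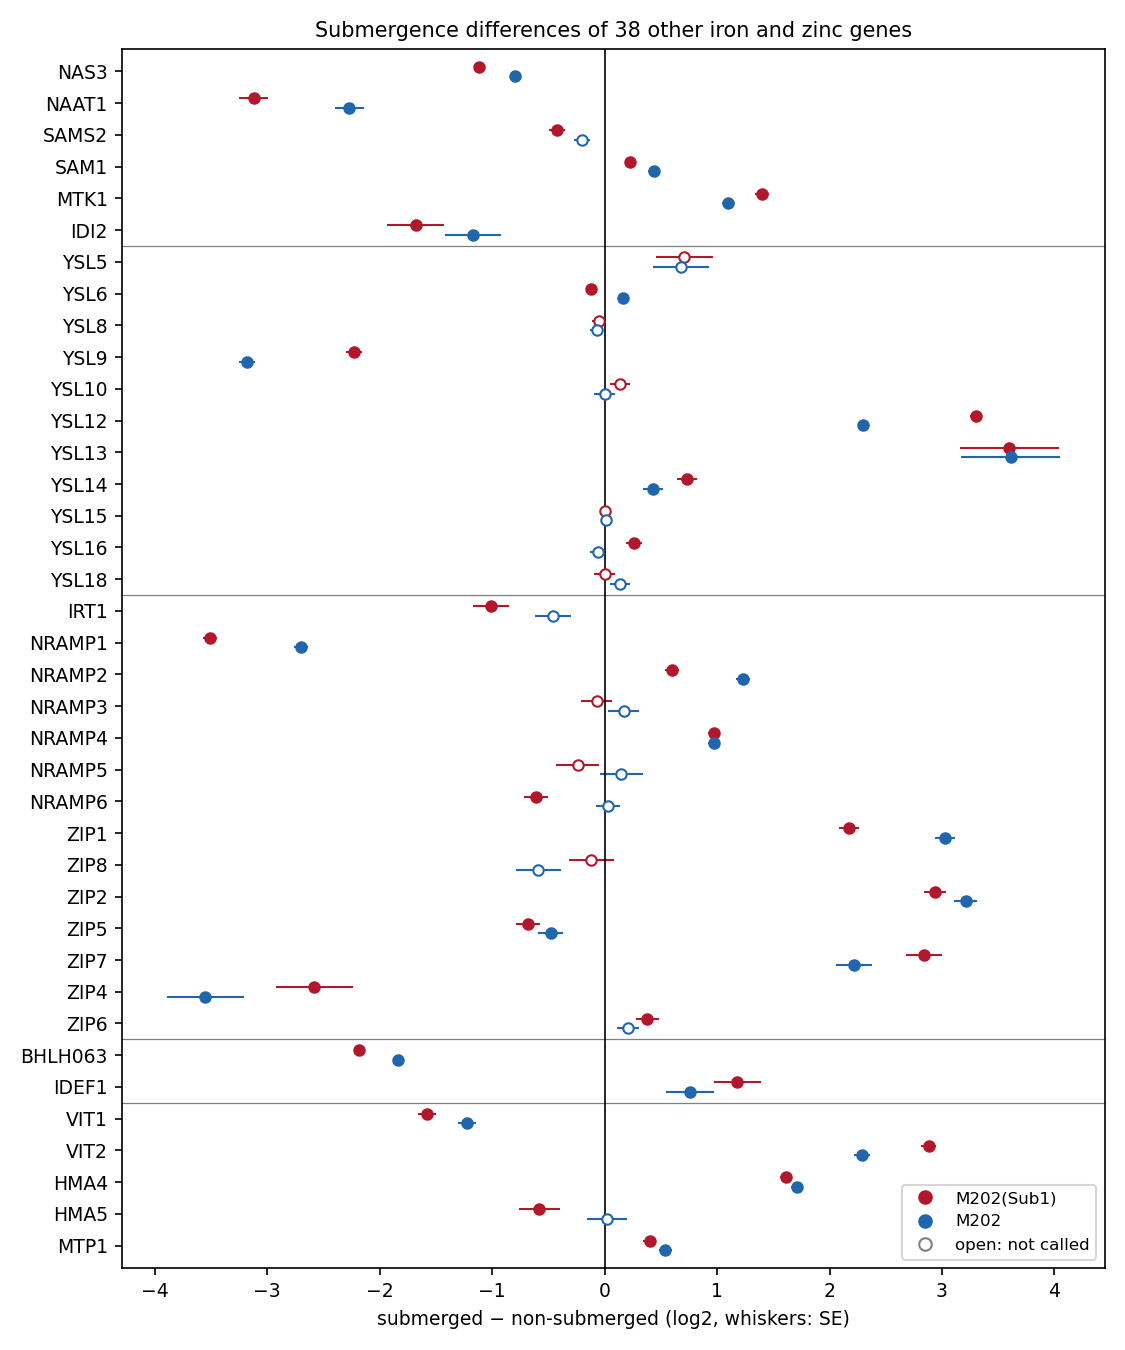
Submergence difference (horizontal axis, log2, submerged minus non-submerged, whiskers SE) of the 38 tested iron and zinc genes, in M202(Sub1) (red) and M202 (blue), with lines between the roles in the order synthesis, transport, uptake, regulators, and storage and movement. Filled points were called and open points were not, and NAAT1, YSL9, NRAMP1, ZIP4, BHLH063 and VIT1 lie left of 0 in both genotypes while YSL12, YSL13, ZIP1, ZIP2, ZIP7 and VIT2 lie right of it.

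The list genes were also compared between the genotypes in non-submerged plants. Of 38 genes, 4 (10.5%) were called lower in M202(Sub1) and 0 higher, with a median of -0.03. Over all tested probe sets 1.23% were called lower and 0.684% higher. At an unadjusted p below 0.05 limma gave 9 lower and 1 higher. The shares above are for the adjusted p, so they cannot be set beside this count. NRAMP1 had 10.64 and 10.52 in M202(Sub1), against 11.54 and 11.48 in M202, a difference of -0.93 ± 0.06 (limma adjusted p = 0.00416). NAS3 had 11.71 and 11.63 in M202(Sub1), against 12.08 and 12.10 in M202, a difference of -0.42 ± 0.04 (limma adjusted p = 0.0107). The genotypes did not overlap in NRAMP1 or NAS3. VIT2 with -0.46 ± 0.07 (limma adjusted p = 0.0477) and BHLH063 with -0.21 ± 0.03 (limma adjusted p = 0.0474) lost their call whichever of the 8 arrays was left out (limma adjusted p = 0.068 to 0.127 for VIT2 and 0.0546 to 0.13 for BHLH063). NAAT1 had a value of -0.55 ± 0.13 (limma adjusted p = 0.172).

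In submerged plants 11 of the 38 genes were lower in M202(Sub1) and 2 higher, with a median of -0.11, where 10.1% of all tested probe sets were lower and 10.6% higher. With the stricter filter 11 of 34 list genes were lower and 4 higher. At that filter 8102 of 22903 probe sets were called, 51% of those called being higher. Spike-in centring gave another split. It moves the median of all tested probe sets by -0.25, and 22 list genes were lower and 1 higher. At that setting 15784 of the 34355 tested probe sets were called, and 10.2% of those called were higher. NRAMP1 had 7.14 and 7.01 in M202(Sub1), against 8.82 and 8.80 in M202, a difference of -1.73 ± 0.06 (limma adjusted p = 0.000186). NAAT1 differed by -1.39 ± 0.13, ZIP1 by -0.83 ± 0.09, NAS3 by -0.74 ± 0.04 and NRAMP2 by -0.64 ± 0.06. VIT1 differed by -0.59 ± 0.08, a call lost without replicate 2 of submerged M202(Sub1) (limma adjusted p = 0.0521). NRAMP6, a metal transporter family member, had -0.55 ± 0.11 and lost its call on leaving out any of 6 arrays, all but those of non-submerged M202(Sub1) (limma adjusted p = 0.0614 to 0.105). BHLH063 differed by -0.54 ± 0.03. The higher ones were YSL12 with 0.98 ± 0.05 and YSL9 with 0.57 ± 0.07, and YSL9 was not called after centring on the spike-ins (limma adjusted p = 0.0539). IRT1 had a difference of -0.69 ± 0.16 (limma adjusted p = 0.0383), and this call was lost without any 1 of 7 arrays, all but replicate 1 of submerged M202(Sub1) (limma adjusted p = 0.0594 to 0.153). The summed level of the 6 root markers, of which LSI2, SHR1 and WOX5 were at the floor, was lowest in submerged M202(Sub1), with 9.62 and 9.60 (log2 of the sum), against 10.21 and 10.32 in submerged M202. This sum is mostly LSI1, which averaged 9.50 in submerged M202(Sub1) and 10.18 in submerged M202. In non-submerged plants it was 10.15 and 10.14 in M202(Sub1) and 10.06 and 10.10 in M202. The summed level of the 10 green tissue markers was 18.06 and 17.99 in submerged M202(Sub1) and 18.13 and 18.13 in submerged M202, and in non-submerged plants it was 18.47 and 18.41 in M202(Sub1) and 18.40 and 18.41 in M202. RBCS, RCA and CAB2R make up most of it, and other green markers had larger differences. CHLI, a magnesium chelatase subunit, averaged 4.09 in submerged and 7.18 in non-submerged M202(Sub1), and 4.31 in submerged and 7.21 in non-submerged M202. PSB28, a photosystem II protein, averaged 11.62 in submerged and 13.33 in non-submerged M202(Sub1), and PORA, a protochlorophyllide reductase, averaged 12.69 in submerged M202(Sub1) and 13.72 in submerged M202. The part of these markers in the differences was not tested. In such whole-tissue samples fewer cells of a type and less RNA per cell cannot be told apart.

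**Figure D5:**
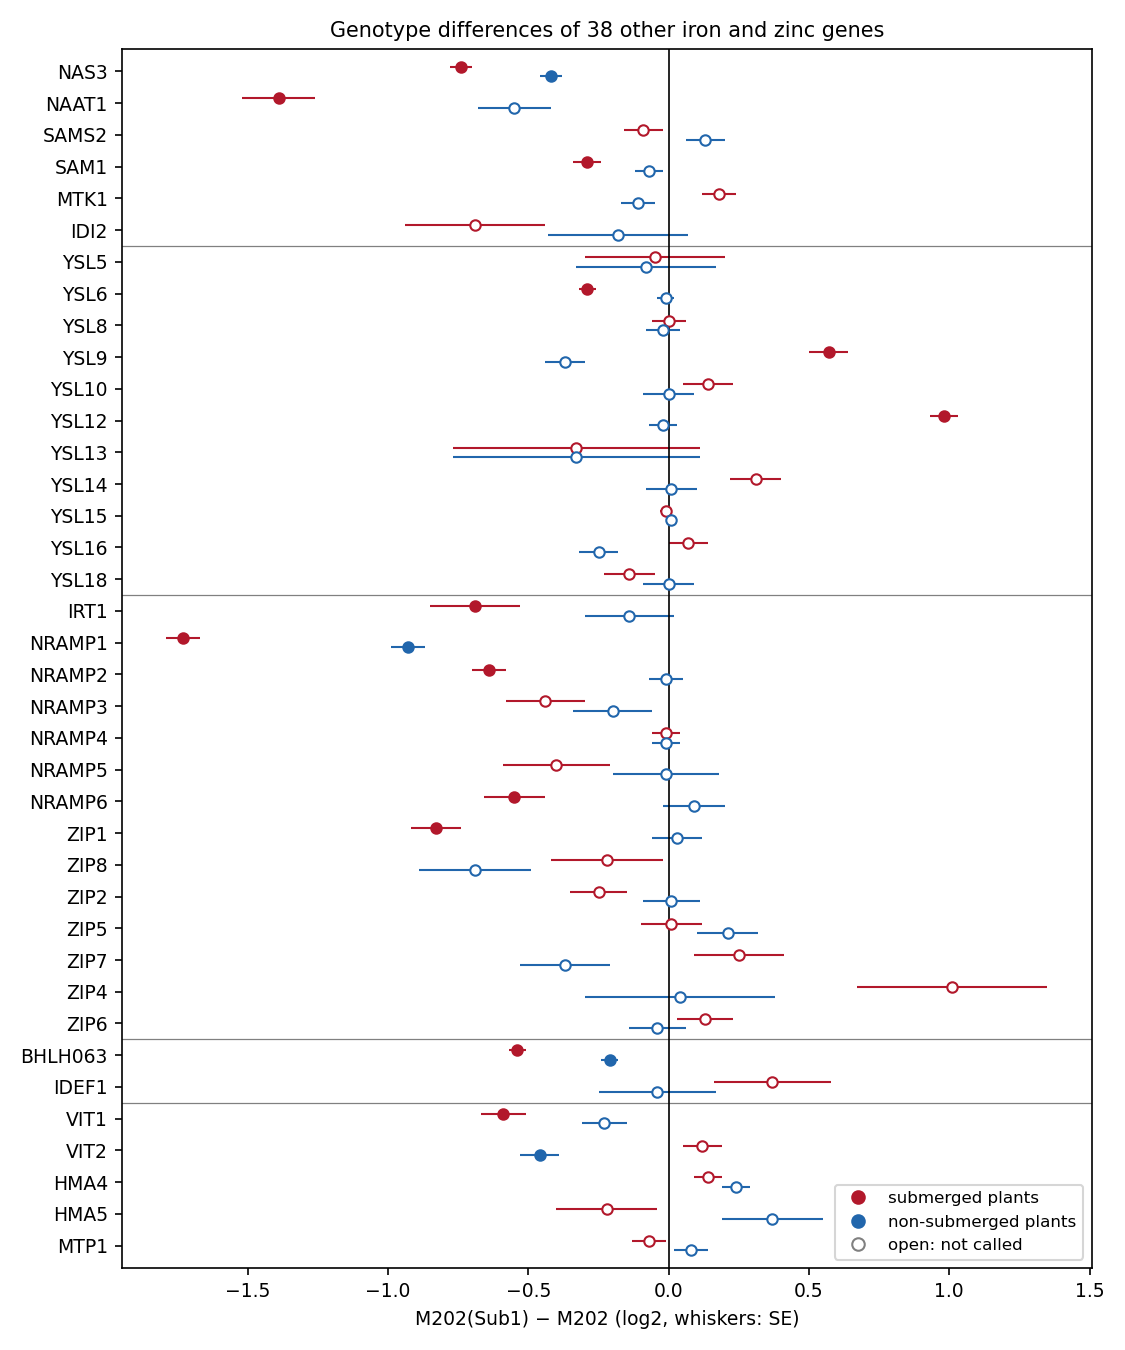
Genotype difference (horizontal axis, log2, M202(Sub1) minus M202, whiskers SE) of the 38 tested iron and zinc genes, in submerged (red) and non-submerged plants (blue), with the roles in the order synthesis, transport, uptake, regulators, and storage and movement. Filled points were called and open points were not, and NRAMP1 and NAS3 are filled and left of 0 in both.

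The submergence response itself differed between the genotypes for 10 of the 38 genes, 3 with a higher and 7 with a lower value in M202(Sub1), where 12.3% of all tested probe sets were called, 6.36% with a higher and 5.93% with a lower value. NRAMP1 had an interaction of -0.80 ± 0.09 (limma adjusted p = 0.00822), which was its larger fall in M202(Sub1). BHLH063 had -0.33 ± 0.04 and also fell more in M202(Sub1). YSL12 had 1.01 ± 0.07 and rose more in M202(Sub1), while YSL9 had 0.95 ± 0.10 and fell less. The calls of these 4 genes held when any 1 array was left out. The number of list genes called was 6 without replicate 1 of non-submerged M202, 5 without its replicate 2 and 6 without replicate 1 of submerged M202. Over all tested probe sets the 4223 calls became 3096, 3118 and 3800 without the same arrays. With the stricter filter 12 of 34 list genes were called for the interaction, beside 5117 of 22903 probe sets.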

How the data were processed

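The authors deposited 1 log2 expression level per probe set and array for 8 arrays. GCRMA and MAS5 are named in the submitters' processing notes, with no role, order or version, and the deposited log2 values share a floor of 2.22, with 43.4% to 44.8% of each array within 0.01 of it. Arrays have no read depth, and 2 per group limit the precision. No build is named for the array.

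Genes were named through GEO's platform annotation and the RefSeq table of ASM3414082v1. The 123 control probe sets were left out. Of the rest, 34355 were tested, those whose mean over the 8 arrays reached 2.23 (log2), the 40th percentile. A model with 1 coefficient for each group was fitted in limma 3.58.1 under R 4.3.3 (lmFit, eBayes with intensity trend, 4 residual and 0.99 prior degrees of freedom), with Benjamini-Hochberg adjustment over all tested probe sets and a threshold of 0.05, and was tested on simulated data. Tables were made with Python 3.11.15 and pandas 2.3.3. With 2 arrays against 2 the smallest exact permutation p is 0.333, so no such test was run.

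A list gene with several probe sets is represented by the one with the highest mean. The list genes named with values are among the 10 largest called in at least 1 comparison, without every such gene being named. MTK1, IDI2, IDEF1, HMA4, HMA5, MTP1, YSL14, YSL15, SAM1, YSL16, ZIP5 and ZIP6 were named outside this rule, after their values were seen. Most alike were the 3 named genes with the highest Pearson r. The IDI1 entry, which also carries heat shock factor symbols, and the entries tom1 and tom2, whose function is unsure, were left out of the list. The 5 genes and the list were chosen with earlier results of these data known. Neighbouring genes were looked up after the data had been seen.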

Additional observations from a re-analysis of the deposited data

Results flagged for a closer look

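The submergence response differed between the genotypes for 10 genes of the iron and zinc list, by the interaction term of the limma fit (submergence difference in M202(Sub1) minus that in M202, log2, n = 2 arrays per group). The value was 1.01 for YSL12, 0.95 for YSL9 and 0.58 for VIT2. It was -0.86 for ZIP1, -0.85 for NAAT1, -0.80 for NRAMP1, -0.63 for NRAMP2, -0.33 for BHLH063, -0.32 for NAS3 and -0.29 for YSL6. Calls were lost when 1 array was left out for ZIP1 (2 of the 8 arrays, limma adjusted p up to 0.0551), NRAMP2 (3 arrays, up to 0.0572), YSL6 (4 arrays, up to 0.0682), VIT2 (5 arrays, up to 0.0623), NAS3 (6 arrays, up to 0.0737) and NAAT1 (6 arrays, up to 0.131). With the replicate number as a block the adjusted p of NAAT1 was 0.0687, and that of VIT2 was 0.143 with spike-in centring.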

How the results depend on the processing

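The differences of NAS1, NAS2, IRT2 and 0sFRO1 that reached 1 log2 unit kept their direction under every scaling tried and without any 1 array. Leaving out arrays gave -3.67 to -3.43 for NAS1 and -2.23 to -2.08 for NAS2 between the genotypes in non-submerged plants, and 4.3 to 4.62 for the submergence difference of IRT2 in M202. The interaction of NAS1 ranged from 0.38 to 0.97. Centring on the poly(A) spike-ins moved 18 of the 25 differences of the 5 genes by more than the spread within groups, for example that of NAS1 in M202(Sub1) to -2.21.

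The number of list genes called for genotype in non-submerged plants, 4, became 2 with no filter, after centring on the spike-ins or after quantile normalization, and 2 to 3 when 1 array was left out, where NRAMP1 and NAS3 were called each time. Over all probe sets the 657 calls became 482 with no filter, 831 after centring, 684 after quantile normalization and 395 to 1769 without 1 array. For genotype in submerged plants, 13 became 23 after centring and 10 to 13 without 1 array. Calls over all tested probe sets there went from 7123 to 15784 after centring. Without 1 array, 10 became 5 to 9 for the interaction, where the 4223 calls over all tested probe sets became 3096 to 4162. For submergence in M202 24 became 20 to 26, and in M202(Sub1) 30 became 25 to 29. Centring on the spike-ins turned the sign of SAM1 (-0.17), YSL16 (-0.14) and ZIP6 (-0.02) for submergence in M202(Sub1), of YSL6 (-0.03) for submergence in M202 and of YSL16 (-0.18) for genotype in submerged plants. The cause was not tested.

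Equal replicate numbers did not mark shared deviations (r = 0.01 to 0.18 between groups). With the replicate number as a block, 30 list genes were called for submergence in M202(Sub1) and 24 in M202. The block gave 14 for genotype under submergence, 3 for genotype without it and 10 for the interaction. Over all tested probe sets it gave 6678, 462 and 3636 calls for these, against 7123, 657 and 4223 without the block. Signal near the floor limits NAS1 in submerged M202(Sub1), IRT2 in non-submerged plants and osysl1 throughout.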
